A study of Sus scrofa with 2 samples.

Results

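The genes described here encode the tight junction: 7 claudins (CLDN1, CLDN3, CLDN4, CLDN8, CLDN10, CLDN11 and CLDN12), the MARVEL proteins occludin (OCLN) and tricellulin (MARVELD2), and the scaffold zonula occludens 1 (TJP1). They were chosen by name, and all 10 were found among the 27622 features of the deposited expression table. The table itself names 7 of them (CLDN1 under the symbol CLAUDIN1), the description of its row names OCLN, and an Ensembl name table gave TJP1 and the main row of MARVELD2. MARVELD2 has a further row (ENSSSCG00000020851) with 0 reads in the R/r library and 1 read in the r/r library, and the row with the higher values (ENSSSCG00000016959) is described. The row named CLDN3 (ENSSSCG00000021536) carries the name CLDN9 in the Ensembl name table, so that its identity is uncertain. It is called CLDN3 here, as in the deposited table.

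RNA of the stria vascularis (SV), dissected with the lateral wall of the cochlea from Rongchang pigs, was sequenced in 1 library of the MITF R/r genotype and 1 library of the MITF r/r genotype. R is the wild-type allele of MITF and r is the allele of the deaf albino pigs, which carries short insertions upstream of the exon specific to melanocytes. Both libraries therefore come from pigs with the r allele, and an R/R library was not analysed here. The paper calls the inheritance of the hearing loss recessive and, since a few heterozygous pigs were hearing impaired, semi-recessive. The labels give postnatal day 1 for both, whereas the paper's text places the RNA-seq before birth. The number of animals behind each library is not given in the sources used here.

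Tight junctions close the space between neighbouring epithelial cells, and the claudins expressed decide which ions pass along that space. In the SV, marginal cells face the endolymph and basal cells face the spiral ligament, and the tight junctions of both layers isolate the intrastrial space in which the intermediate cells, the melanocytes of the cochlea, generate the endolymphatic potential. CLDN11 is the claudin of the basal cell junctions, and mice without it lose the potential and their hearing.

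The measure was RPKM, a read count scaled to the length of the gene's exons and to the size of the library, so that levels can be compared between genes. Whole reads behind the RPKM values were worked out from the table, with totals of 15829244 reads for the R/r library and 14258672 reads for the r/r library. All intervals below are exact 95% intervals on these reads and cover no error beyond counting. Each genotype had 1 library, hence no replicate and no test: every difference compares these libraries, and animal, dissection and genotype cannot be told apart.

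None of the 10 genes was 2-fold apart between the libraries. All 10 were at an RPKM of at least 1 in both libraries, and the log2 ratio, r/r over R/r, ran from -0.37 for CLDN3 to 0.34 for CLDN10, with 7 genes lower and 3 genes higher in the r/r library by value. Across all 16331 genes compared, which were above 0 in both libraries and reached an RPKM of 1 in one or both, 3.99% were 2-fold or more apart, of which lower genes made 2.2% and higher genes 1.78% of all compared. Among those with an RPKM of at least 10 this was 1.01%, 0.628% lower and 0.383% higher. The whole interval lay within 2-fold for all 10 genes. With the reads divided by 2, as if both mates of a pair had been counted, the intervals of CLDN10 and CLDN1 reached past 2-fold. At this depth, differences smaller than 2-fold could be resolved for part of the 10 genes. The interval excluded no change for CLDN11, CLDN3, CLDN4 and OCLN, which were lower, and for CLDN8, which was higher. An interval that excludes no change was found for 25.7% of all genes compared, 14.5% lower and 11.2% higher. The members with such an interval all had an RPKM of at least 10, where they were 5 of 7 members and where the share was 33.4% of 8605 genes, 18.2% lower and 15.3% higher. The median log2 ratio of the 10 genes was -0.16, and that of all genes compared was -0.02. These shares describe the libraries and are no test of the list, whose members were chosen with earlier results of these data known.

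**Figure D1:**
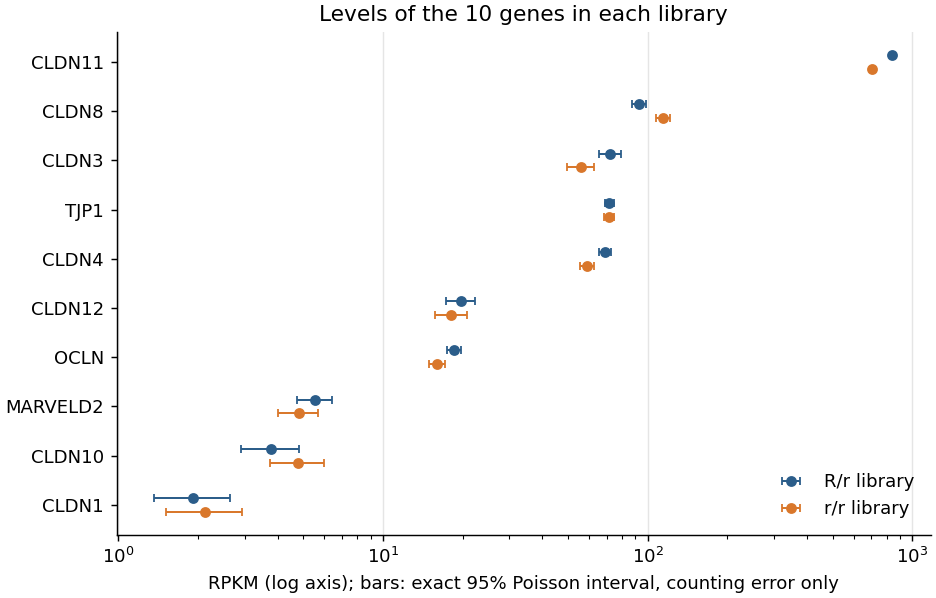
RPKM (log axis) of the 10 genes in the R/r library (blue) and the r/r library (orange), with exact 95% Poisson intervals that cover counting error only. CLDN11 stands near 840 and 706 RPKM, CLDN8, CLDN3, TJP1 and CLDN4 lie between 55.9 and 114 RPKM, and CLDN1 is lowest at 1.92 and 2.13 RPKM.

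**Figure D2:**
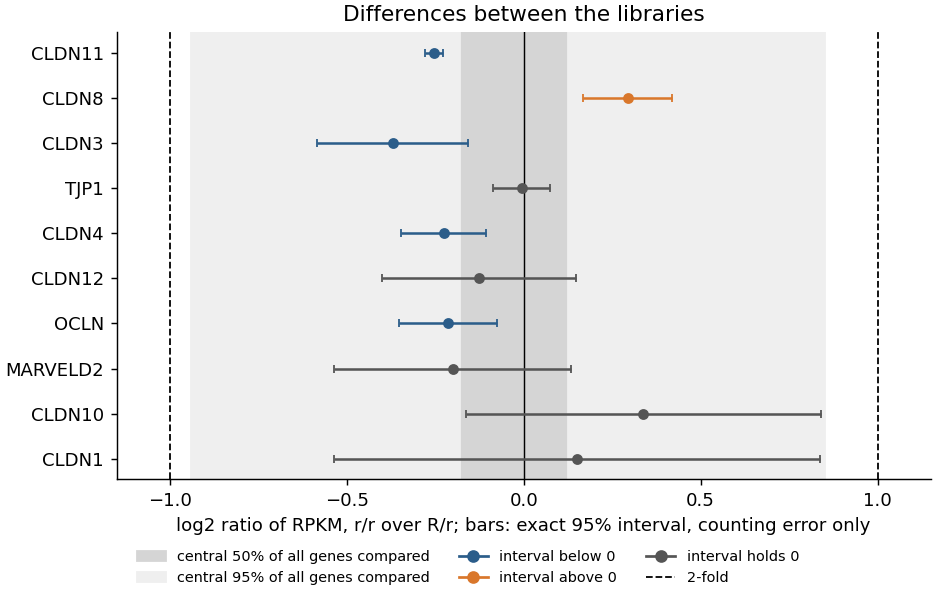
The log2 ratio of RPKM (r/r over R/r) of each gene with its exact 95% interval, beside the central 50% (dark band) and central 95% (light band) of all genes compared, with dashed lines at 2-fold. The intervals of CLDN11, CLDN3, CLDN4 and OCLN lie below 0, that of CLDN8 lies above 0, and the other 5 hold 0.

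CLDN11 (ENSSSCG00000011747), the basal cell claudin, had 840 RPKM in the R/r library and 706 RPKM in the r/r library, from 28626 and 21649 reads on an exon model of 2152 bases. It was the gene of the 10 with the highest level by a wide margin, at place 74 and place 100 among all features of the R/r and r/r libraries. The R/r library was higher, with Poisson intervals of 831 to 850 RPKM against 696 to 715 RPKM that do not overlap. The log2 ratio was -0.25 (95% interval -0.28 to -0.23), a level 1.19-fold higher in the R/r library. Since the reads are many, the interval is narrow, but a difference of this size was common in the data: 18.0% of all genes compared had a lower ratio, and 10.4% of those with an RPKM of at least 10. In tissue RNA, fewer basal cells and less CLDN11 RNA in each cell cannot be told apart.

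CLDN8, CLDN3, CLDN4 and CLDN1 are claudins that mostly seal epithelia. CLDN8 (ENSSSCG00000012030), known from the distal nephron, was the second most abundant of the 10 in both libraries and the one member above no change. It had 93.1 RPKM in the R/r library and 114 RPKM in the r/r library, from 999 and 1103 reads. The r/r library was higher, with a log2 ratio of 0.29 (0.17 to 0.42), or 1.23-fold. Of the genes compared, 11.2% had a higher ratio, and 5.37% of those with an RPKM of at least 10.

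CLDN3 and CLDN4, receptors for a clostridial enterotoxin as well as barrier proteins, both had the lower value in the r/r library. The feature named CLDN3 had 72.2 RPKM (R/r library) and 55.9 RPKM (r/r library), from 439 and 306 reads, with a log2 ratio of -0.37 (-0.59 to -0.16). Its exon model had 384 bases, or a whole multiple of this length. CLDN4 (ENSSSCG00000007718) had 69.0 RPKM and 59.0 RPKM, from 1318 and 1015 reads, with a log2 ratio of -0.23 (-0.35 to -0.11). In the later assembly Sscrofa11.1, CLDN3 and CLDN4 are neighbours with 0 coding genes between them. CLDN6 and CLDN9 are neighbours in the same sense, and CLDN6 had a log2 ratio of -0.40 (-0.75 to -0.06).

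CLDN1 (ENSSSCG00000028484), the main sealing claudin of the epidermis, was at the low end. It had 1.92 RPKM in the R/r library and 2.13 RPKM in the r/r library, from 38 reads in each. Its log2 ratio of 0.15 had an interval of -0.54 to 0.84, so that at this depth the r/r level may lie anywhere between 0.689 and 1.79 times the R/r level.

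CLDN10 forms ion-selective pores in kidney and gland epithelia, and CLDN12 is a widely expressed claudin without the usual binding motif for scaffold proteins at its end. CLDN10 (ENSSSCG00000009500) had 3.78 RPKM in the R/r library and 4.78 RPKM in the r/r library, from 65 and 74 reads. By value this was the highest ratio of the 10, 0.34 on the log2 scale, but its interval of -0.16 to 0.84 holds no change. CLDN12 (ENSSSCG00000015306) had 19.7 RPKM and 18.1 RPKM, from 247 and 204 reads, with a log2 ratio of -0.13 (-0.40 to 0.15). CLDN10 thus stood far below the sealing claudin CLDN8, which had 24.6 times its level in the R/r library and 23.9 times in the r/r library.

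OCLN (ENSSSCG00000021514) lies in junctions between pairs of cells, and MARVELD2 (ENSSSCG00000016959) gathers where 3 cells meet; loss of MARVELD2 deafens humans and mice. OCLN had 18.5 RPKM in the R/r library and 16.0 RPKM in the r/r library, from 987 and 767 reads. Its log2 ratio was -0.21 (-0.35 to -0.08), below no change. MARVELD2 had 5.51 RPKM and 4.80 RPKM, from 172 and 135 reads. Its log2 ratio of -0.20 was close to that of OCLN, but with fewer reads the interval of -0.53 to 0.13 holds no change. The level of OCLN was 3.36 times (2.85 to 3.97) that of MARVELD2 in the R/r library and 3.33 times (2.77 to 4.02) in the r/r library. These genes are neighbours in Sscrofa11.1, with 0 coding genes between them.

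TJP1 (ENSSSCG00000004854) links claudins and OCLN to the actin skeleton. It had 71.7 RPKM in the R/r library and 71.5 RPKM in the r/r library, from 2669 and 2395 reads, the closest pair of values among the 10 genes. The log2 ratio was -0.01, and its interval of -0.09 to 0.07 leaves room only for differences smaller than those of CLDN11 and CLDN8.

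**Figure D3:**
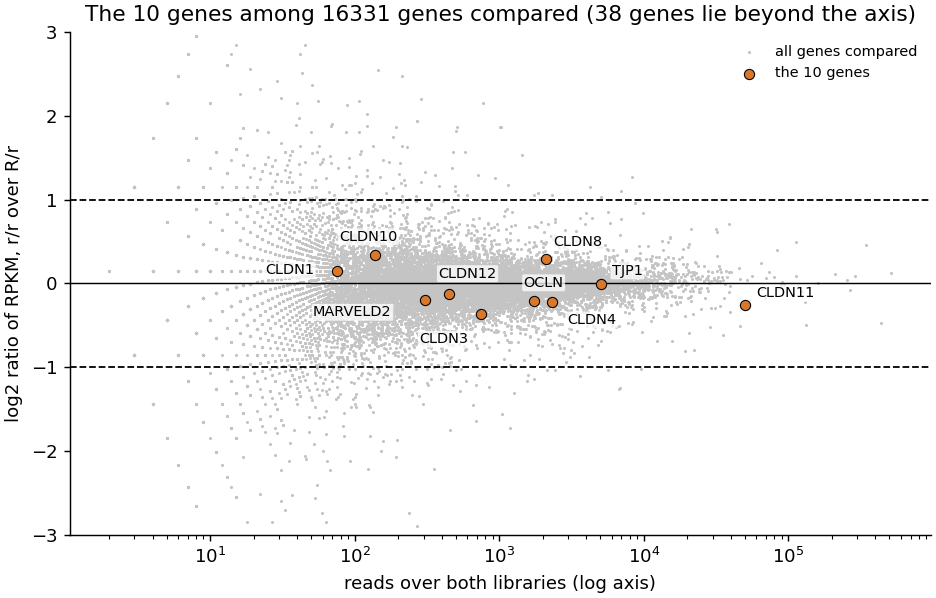
The log2 ratio of RPKM (r/r over R/r) against the reads of a gene over both libraries (log axis), for 16331 genes compared (grey) and the 10 genes (orange), with dashed lines at 2-fold and 38 genes beyond the axis. The 10 genes lie inside the 2-fold lines, and CLDN11, with 50275 reads, sits among the most deeply sequenced genes.

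The order of the levels was the same in both libraries at its ends, with CLDN11 and then CLDN8 at the top and CLDN12, OCLN, MARVELD2, CLDN10 and CLDN1 at the bottom. CLDN11 had 9.03 times (8.48 to 9.63) the level of CLDN8 in the R/r library and 6.18 times (5.82 to 6.58) in the r/r library. In between, CLDN3, TJP1 and CLDN4 could not be ordered in the R/r library: the level of CLDN3 was 1.01 times (0.908 to 1.11) that of TJP1, and that of TJP1 was 1.04 times (0.973 to 1.11) that of CLDN4. In the r/r library TJP1 stood above CLDN4 at 1.21 times (1.13 to 1.31), and CLDN4 and CLDN3 did not differ beyond counting error, at 1.06 times (0.928 to 1.2). CLDN12 and OCLN did not differ beyond it in either library, nor did MARVELD2 and CLDN10 in the r/r library.

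Ratios between genes of one library are free of the scaling of the libraries. The difference of the log2 ratios was taken for all 45 pairs of the 10 genes, without adjustment for their number, and its interval excluded 0 in 15 pairs. CLDN8 took part in 7 of these, more than any other of the 10 genes. Relative to CLDN8, CLDN11 was 0.55 lower on the log2 scale in the r/r library (interval of the difference -0.67 to -0.42). The difference of CLDN8 minus CLDN4 was 0.52 (0.35 to 0.69): CLDN8 had 1.35 times the level of CLDN4 in the R/r library and 1.93 times in the r/r library. Against TJP1, the difference was 0.30 for CLDN8 (0.15 to 0.45) and -0.25 for CLDN11 (-0.33 to -0.16). Against OCLN, CLDN11 had 45.4 times its level in the R/r library and 44.2 times in the r/r library. The pairs with CLDN1 had no interval that excluded 0.

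By name, 20 claudins were found, and their summed level was 1201 RPKM in the R/r library and 1061 RPKM in the r/r library. A further 9312 features had no name and may hold other claudins. CLDN11 made up 70.0% of this sum in the R/r library against 66.5% in the r/r library. CLDN8 took 7.75% and 10.8%, CLDN3 took 6.01% and 5.27%, and CLDN4 took 5.74% and 5.56%. Without CLDN11 the sum was almost equal, 361 RPKM and 356 RPKM, so that CLDN11 made most of the difference in the family's summed level. CLDN10 and CLDN15, both pore-forming, together held 0.377% and 0.568%, with CLDN15 at 8 and 12 reads, or a multiple of them. This is the share of these genes and not of all pore-forming claudins.

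Of the 13 claudins that are not among the 10 genes, CLDN5, the claudin of capillary endothelium, had the highest level, with 71.3 RPKM in the R/r library and 76.3 RPKM in the r/r library (log2 ratio 0.10, interval -0.05 to 0.25). In the R/r library this level lay close to those of CLDN3 and CLDN4, and in the r/r library it lay above both. CLDN20 had 11.5 and 9.67 RPKM, and CLDN6 had 8.75 and 6.62 RPKM. CLDN14, another claudin whose loss causes deafness and which belongs to hair cells and supporting cells, had 2.37 and 1.75 RPKM, from 3 and 2 reads or a multiple of them. CLDN16, CLDN17 and CLDN18 were listed at 0 in both libraries. CLDN17 is the neighbour of CLDN8 in Sscrofa11.1, and CLDN16 that of CLDN1.

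**Figure D4:**
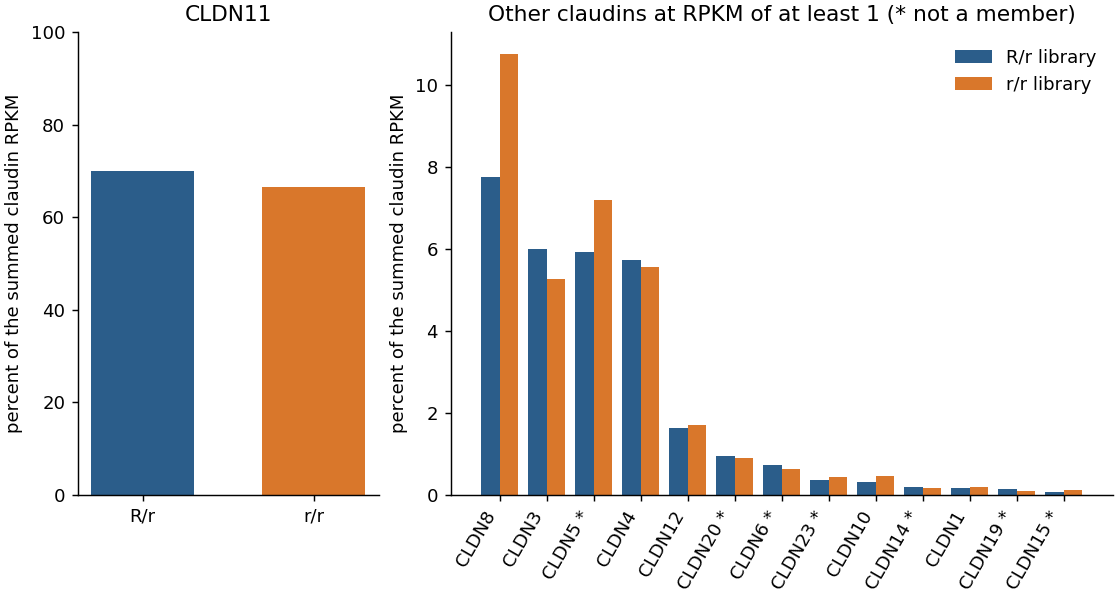
Share of each claudin in the summed claudin RPKM, in percent, for CLDN11 (left) and for the other claudins at an RPKM of at least 1 (right, on its own axis), in the R/r library (blue) and the r/r library (orange). CLDN11 holds 70.0% and 66.5%, and the share of CLDN8 is 7.75% in the R/r library against 10.8% in the r/r library.

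The other genes of the junction were grouped into lists. For comparison, 14.5% of all genes compared had an interval below no change and 11.2% above, and 3.99% were at least 2-fold apart. Among genes with an RPKM of at least 10, 18.2% had an interval below and 15.3% above. Of 15 other genes whose symbol starts with CLDN, 9 could be compared; 0 were 2-fold apart, and 2 had an interval below no change. These were CLDN6 and CLDND2, a protein with a claudin domain, which had 21.8 RPKM in the R/r library and 14.2 RPKM in the r/r library (log2 ratio -0.62, -0.99 to -0.25). The median of this list was -0.25. The list of other transmembrane proteins had 11 genes, with 0 genes 2-fold apart, 1 below and 3 above no change, and a median of -0.03. It also holds TJAP1, whose protein is not transmembrane and whose log2 ratio of -0.03 (-0.28 to 0.21) is this median. The adhesion molecules JAM3 and JAM2 led it in level. JAM2 had 91.6 and 102 RPKM (log2 ratio 0.16, 0.04 to 0.27). MARVELD3, the third MARVEL protein of the junction, had 2.45 and 3.59 RPKM, with a log2 ratio of 0.55 (0.07 to 1.04), opposite in sign to OCLN and MARVELD2. CXADR, a receptor for adenoviruses, had 21.4 and 18.5 RPKM (-0.21, -0.31 to -0.10).

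The cytoplasmic plaque list had 21 of 24 genes found, with 0 genes 2-fold apart, 5 below and 4 above no change, and a median of -0.02. AMOT, a regulator of the Hippo pathway at the junction, was the most abundant of the list, with 74.4 RPKM in the R/r library and 91.0 RPKM in the r/r library (0.29, 0.24 to 0.35). The polarity genes PARD6G and PRKCZ, whose proteins work in the same complex, stood on opposite sides. PARD6G had 5.85 and 8.41 RPKM (0.52, 0.30 to 0.75), and PRKCZ had 8.88 and 6.37 RPKM (-0.48, -0.83 to -0.13). For PARD3, PARD6B and PRKCI, further polarity genes of this list, the interval held no change (log2 ratios -0.02, 0.04 and 0.17). Over these 3 lists, 41 genes were compared, and 8 had an interval below and 7 above no change. Of all genes compared, 14.5% had an interval below and 11.2% above. The median log2 ratio of the 41 genes was -0.02, beside -0.16 for the 10 genes. The median of the plaque list turned to 0.01 under scaling by the upper quartile.

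**Figure D5:**
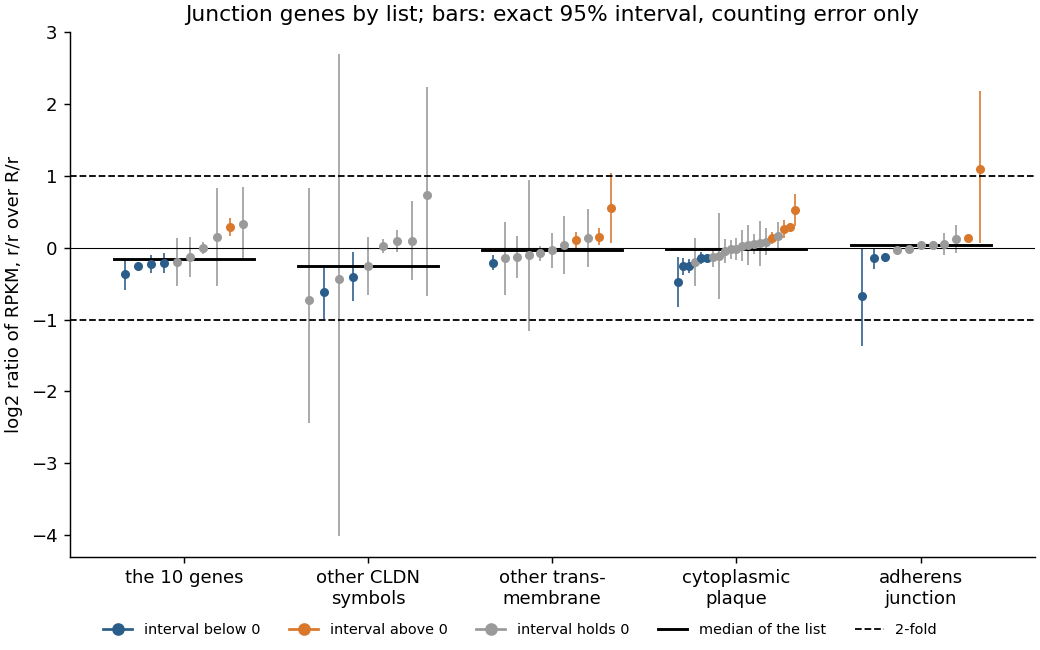
The log2 ratio of RPKM (r/r over R/r) of the 10 genes and of 4 lists of other junction genes, each point with its exact 95% interval (counting error only; blue below 0, orange above 0, grey holding 0) and a black line at the median of the list, with dashed lines at 2-fold. Medians lie between -0.25 and 0.03, and 1 gene, CDH3 of the adherens junction list, lies past 2-fold with an interval that reaches down to 0.07.

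Marker lists of the cells in the dissected tissue were summed in each library, and their part in the differences above was not tested. For comparison, 14.5% of all genes compared had an interval below no change and 11.2% above, and 2.2% were at least 2-fold lower. Among genes with an RPKM of at least 10, 18.2% had an interval below and 15.3% above. The list of intermediate cells and melanocytes was lower, with a summed level of 348 RPKM in the R/r library and 90.0 RPKM in the r/r library, and 6 of its 8 genes were at least 2-fold lower. DCT, an enzyme of melanin synthesis, had 171 and 1.19 RPKM and made up most of the difference of the sums. KIT, a receptor of melanocytes and other cells, had 43.6 and 44.2 RPKM (log2 ratio 0.02, -0.06 to 0.09), a large part of the sum in the r/r library. MITF itself had 51.7 and 37.8 RPKM (-0.45, -0.75 to -0.16), from 243 and 160 reads. Its row does not separate the isoforms and has an exon model of 297 bases, or a whole multiple of this length. The paper reports that the gene is incompletely annotated in Sscrofa10.2. Counting its RNA-seq reads per exon, the paper found the exon specific to melanocytes much lower in the r/r SV than in the R/r SV. By microscopy, the paper found intermediate cells in the r/r SV before birth, and it places their loss around birth. Whether the number of these cells differed between the libraries was not tested. Of the basal cell and fibrocyte list, 4 of 7 genes were found, and without CLDN11 the sum was 7052 and 5172 RPKM, of which COCH held 6826 and 4914 RPKM. Of the 4 genes found, 2 had an interval below no change and 1 above. Those below were CLDN11 and COCH (log2 ratio -0.47, -0.483 to -0.465). POU3F4 had 54.2 and 52.6 RPKM (-0.04, -0.17 to 0.09). TBX18, a factor of otic fibrocytes and basal cells, was the 1 gene above, with 172 and 205 RPKM (0.25, 0.22 to 0.29). The simple epithelium list had 512 and 475 RPKM, with 4 of 6 genes compared below no change and 0 above, and it includes EPCAM with 104 and 98.3 RPKM. The marginal cell list had 1633 and 1206 RPKM, with 4 of 6 genes below no change and 1 above. Most of this difference lay in ATP1B2, a subunit of the sodium pump, with 915 and 522 RPKM. The bone list had 995 and 649 RPKM, with 6 of 7 genes below no change and 1 above. Of these 7 bone genes, 3 were at least 2-fold lower. The cartilage list had 3466 and 2919 RPKM, with all 3 genes compared below no change. The capillary endothelium list, which holds CLDN5, had 289 and 286 RPKM, with 2 of 8 genes below no change and 1 above. The list of hair cells and organ of Corti was low, at 22.9 and 23.7 RPKM, but its genes stood apart, with 2 of the 4 compared below no change and 1 above.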

How the data were processed

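RNA-seq of 1 library per genotype was analysed, with groups taken from the labels. The authors quality-filtered paired-end reads, used TopHat (version 2.0.7 in the submitters' processing notes) against Sscrofa10.2 and deposited 1 table of RPKM values per gene. The counting program, the annotation release and the treatment of reads that match several genes are not given in the sources used here. The 2 columns without headings hold the authors' differences and ratios for 22 genes and were not used.

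Reads were worked out from the RPKM values. Low genes with equal reads gave the ratio of the library totals, 1.11, and the RefSeq lengths of mitochondrial genes gave the totals (7 of 12 lengths were met, or a whole fraction of them). Each gene then received the smallest whole length, from 50 bases, that makes its reads whole in both libraries, which was found for all of 20862 features above 0. The true reads can be a multiple, which would narrow the intervals. Whether mates of a pair were counted as 1 is not known, and if each mate was counted, the intervals given are too narrow. The steps were tested on simulated data.

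The log2 ratio was taken without a pseudocount. Intervals are Clopper-Pearson (ratios), Poisson (levels) and conditional odds ratio (pairs of genes) intervals. For a symbol on several rows, the row of highest mean RPKM was taken. Names came from the table (16376 features), row descriptions (307) and Ensembl (1627). The members and lists were chosen with earlier results of these data known. All 10 members are named; other genes only if at least 2-fold apart, with an interval that excludes no change, or among the 3 highest of their list. TJAP1, PARD3, PARD6B and PRKCI were added after their values were seen. So were other claudins and markers of cell types named for their role, or for being at 0. The lists were other genes whose symbol starts with CLDN, other transmembrane proteins, cytoplasmic plaque, adherens junction, and markers of basal cells and fibrocytes, marginal cells, intermediate cells and melanocytes, capillary endothelium, simple epithelium, hair cells and organ of Corti, bone and cartilage. A few genes, and a further marker list that rests on them, are not reported here. Gene order came from RefSeq on Sscrofa11.1. Scripts ran in Python 3.11.15 with scipy 1.17.1, numpy 2.4.6 and pandas 2.3.3, and figures in matplotlib 3.10.9. Pseudocounts, minimums, scalings, fold thresholds and a division of the reads by 2, as if both mates had been counted, were tried as alternatives.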

Additional observations from a re-analysis of the deposited data

How the results depend on the processing

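No paired analysis was possible because each genotype had 1 library. The number of members at least 2-fold apart was 0 under every alternative tried, 1.5-fold included, and the number with an interval that excludes no change was 5 under every minimum and scaling and with the reads divided by 2, an alternative chosen after seeing the data. The share of all genes with such an interval, 25.7%, depended on these choices: it was 14.4% with the reads divided by 2, 22.4% without a minimum and 33.4% at a minimum of 10, and whether reads or pairs were counted is not known. Their median of -0.16 ranged from -0.21 to -0.13. Of 51 log2 ratios of members, 49 stayed within their interval; that of CLDN11 became -0.22 under scaling by the upper quartile and -0.29 under TPM. The sign of TJP1 turned under scaling by the median (0.01) and the upper quartile (0.02). Scaling by the median, the upper quartile or TPM shifted all genes by 0.02, 0.03 and -0.04 on the log2 scale. Among all genes compared, 651 were at least 2-fold apart (360 lower, 291 higher). The number was 1483 (752, 731) without a minimum, and 178 (107, 71) and 87 (54, 33) with minimums of 5 and 10. It was 1771 at 1.5-fold and 130 at 4-fold. The counts at other minimums and fold thresholds change by construction. The number was 670 (371, 299) at a pseudocount of 0.1, where 16416 genes were compared instead of 16331, and 317 (183, 134) at a pseudocount of 1. The fall at a pseudocount of 1 follows by construction, since a pseudocount added to both values pulls each ratio toward no change. Counted over the member claudins alone, CLDN11 held 76.4% in the R/r library against 73.5% in the r/r library. CDH3, the 1 adherens junction gene past 2-fold, left 0 such genes with either pseudocount or minimums of 5 and 10. Depth limits CLDN1, CLDN10 and MARVELD2, with 76, 139 and 307 reads.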

Other observations

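The adherens junction, which lies below the tight junction and joins the actin skeletons of neighbouring cells, had 11 of 12 listed genes found. Its median log2 ratio, r/r over R/r, was 0.03, which turned to -0.0027 when scaled to TPM. In this list 3 genes had an interval below no change and 2 above, beside 14.5% and 11.2% of all genes compared. CTNNB1, which encodes beta-catenin, had 373 RPKM in the R/r library and 409 RPKM in the r/r library, a log2 ratio of 0.13 (95% interval 0.10 to 0.16). CDH1, which encodes E-cadherin, had 226 and 206 RPKM (-0.13, -0.20 to -0.07), and JUP, which encodes plakoglobin, had 86.5 and 78.1 RPKM (-0.15, -0.29 to -0.0042). CDH3, which encodes P-cadherin, was the 1 gene of all the junction lists at least 2-fold apart, with 0.713 RPKM from 13 reads in the R/r library and 1.52 RPKM from 25 reads in the r/r library (1.09, 0.07 to 2.18). PVRL1, a nectin, had 4.41 and 2.76 RPKM (-0.68, -1.36 to -0.02).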
